A study of Mus musculus with 117 samples.

Results

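A set of 10 genes that mark Kupffer cells, other macrophages and leukocytes was followed through chromatin state maps of mouse liver cells labelled as hepatocytes. The genes were Clec4f, Adgre1, Ptprc, Cd68, Marco, Timd4, Vsig4, Csf1r, Lyz2 and Cd5l, 10 of the 21631 protein-coding genes examined on the autosomes and X. They were chosen by name as markers of immune cells. The rule uses no measured value, but the choice was made with earlier results of these data known. Each gene was described over its annotated span with 2 kb added to each side, which gave 2236 bins of 200 bp for the 10 genes together.

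The maps come from chromatin immunoprecipitation with sequencing (ChIP-seq), which recovers DNA wrapped around histones that carry a given modification. Per the labels, the cells came from the livers of female mice aged 12 weeks of 9 inbred strains, the wild-derived CAST/EiJ, PWK/PhJ and WSB/EiJ and the laboratory strains A/J, C57BL/6J, 129S1/SvImJ, NZO/HlLtJ, NOD/ShiLtJ and DBA/2J, with no treatment named. The 117 libraries were 13 per strain, with H3K4me1, H3K4me3, H3K27ac and H3K27me3 from 3 mice each and 1 input. The deposited maps combine these libraries into 1 segmentation per strain, in which each bin carries 1 of 14 state numbers. A strain is therefore 1 value, every SD below is over the 9 strains, and no error within a strain can be given. How the hepatocytes were separated from other liver cells, the read depth and the marks behind each state are not given in the sources used here.

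Kupffer cells are the resident macrophages of the liver. They line the sinusoids, the small blood vessels between the plates of hepatocytes, and take up bacteria, old blood cells and lipids from the blood. In cells that transcribe a gene, nucleosomes around the start carry H3K4me3 and H3K27ac, enhancers carry H3K4me1 with or without H3K27ac, and genes silenced by Polycomb proteins carry H3K27me3. State numbers serve below as names, with no mark assigned to them. State 3 covered 0.410% of autosomal bins and 16.3% of the bins within 1 kb of gene starts. States 1 to 3 are grouped below because they filled most of the spans of 20 hepatocyte genes, with a median of 89.5% per gene, and these 3 states were picked with earlier results of these data known.

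The sequences before 4 of the starts are shown because these genes span the range of states found: Cd68 was rich in states 1 to 3, Ptprc had state 9 at its start in most strains, and Marco and Vsig4 held only states 13 and 14. Each is the 250 bases before the annotated start from RefSeq (GRCm38.p6), written 5′ to 3′ in the direction of the gene. All 4 genes lie on the minus strand, at chr11:69666171-69666420 for Cd68, chr1:138175306-138175555 for Ptprc, chr1:120505025-120505274 for Marco and chrX:96293439-96293688 for Vsig4. Capitals mark matches, on either strand, to GAGGAA, the core of sites for the myeloid factor PU.1. They also mark TTGCNNAA, read by C/EBP factors. Matches to TATAAA, the box read by the TATA-binding protein, and to CCGCCC, the core of sites for Sp1, are in capitals too.
Cd68: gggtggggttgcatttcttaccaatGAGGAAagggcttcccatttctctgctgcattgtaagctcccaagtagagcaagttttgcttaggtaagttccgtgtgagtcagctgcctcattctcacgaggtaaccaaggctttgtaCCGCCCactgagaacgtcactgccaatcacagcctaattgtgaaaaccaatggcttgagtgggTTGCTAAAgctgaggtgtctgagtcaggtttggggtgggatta
Ptprc: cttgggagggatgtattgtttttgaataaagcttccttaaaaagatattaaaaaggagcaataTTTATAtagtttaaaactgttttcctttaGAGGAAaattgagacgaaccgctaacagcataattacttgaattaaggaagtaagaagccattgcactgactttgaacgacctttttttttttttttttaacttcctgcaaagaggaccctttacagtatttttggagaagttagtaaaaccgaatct
Marco: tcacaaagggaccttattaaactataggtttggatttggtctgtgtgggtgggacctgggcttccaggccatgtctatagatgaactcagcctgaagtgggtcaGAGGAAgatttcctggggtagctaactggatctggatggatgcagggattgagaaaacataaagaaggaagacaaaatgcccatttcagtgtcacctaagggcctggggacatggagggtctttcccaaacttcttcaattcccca
Vsig4: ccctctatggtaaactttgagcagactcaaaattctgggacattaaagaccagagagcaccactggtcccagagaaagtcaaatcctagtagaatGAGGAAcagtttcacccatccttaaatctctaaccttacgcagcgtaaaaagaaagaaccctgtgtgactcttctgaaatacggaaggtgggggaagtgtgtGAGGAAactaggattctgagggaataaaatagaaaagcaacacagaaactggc

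The promoter table held 8 of the 10 genes, all but Adgre1 and Csf1r. GAGGAA was found before the starts of 5 of these 8 genes (Cd5l, Cd68, Marco, Ptprc and Vsig4) and in 23.3% of 32851 promoters of the same length. TTGCNNAA was found in Cd68 alone (9.56% of promoters), TATAAA in Ptprc alone (12.4%) and CCGCCC in Cd68 alone (32.7%). No matches overlapped in the sequences shown. The count of CG dinucleotides was 0 to 4 in the 8 genes, against a median of 6 over all promoters. The genes with a GAGGAA match had unlike states: Cd68 held states 1 to 3 in a mean of 64.8% of its span, whereas Marco and Vsig4 had none. A match is a run of letters in this window and not evidence of binding.

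Across the 10 genes, Cd68 and Csf1r held states 1 to 3 in every strain and the other 8 genes held almost none. Clec4f, Marco, Timd4, Vsig4, Lyz2 and Cd5l had no bin of states 1 to 3 in any strain, 6 of 10 genes against 29.9% of all protein-coding genes. State 3 lay within 1 kb of the start in all 9 strains at 0 of 10 genes (41.0% of all genes), and in no strain at 7 of 10 genes (46.8% of all genes). The share of states 1 to 3 in each gene was set against the strain's own autosomal share, 5.22% ± 0.317 (SD, n = 9 strains), or for the X-linked Vsig4 against 0.197% of X. By exact permutation (two-sided sign flips over the 9 strains), with Benjamini-Hochberg adjustment over all 21631 genes, 2 of 10 genes were higher (46.4% of all genes) and 8 were lower (45.6% of all genes). The median over the 10 genes was 0%, and that over all protein-coding genes was 5.14%. The smallest p this test can give is 0.00391, which any gene without states 1 to 3 reaches, so a lower call carries little beyond the absence itself. In such maps a state present in a few of the cells and a weak mark in all of them cannot be told apart.

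**Figure D1:**
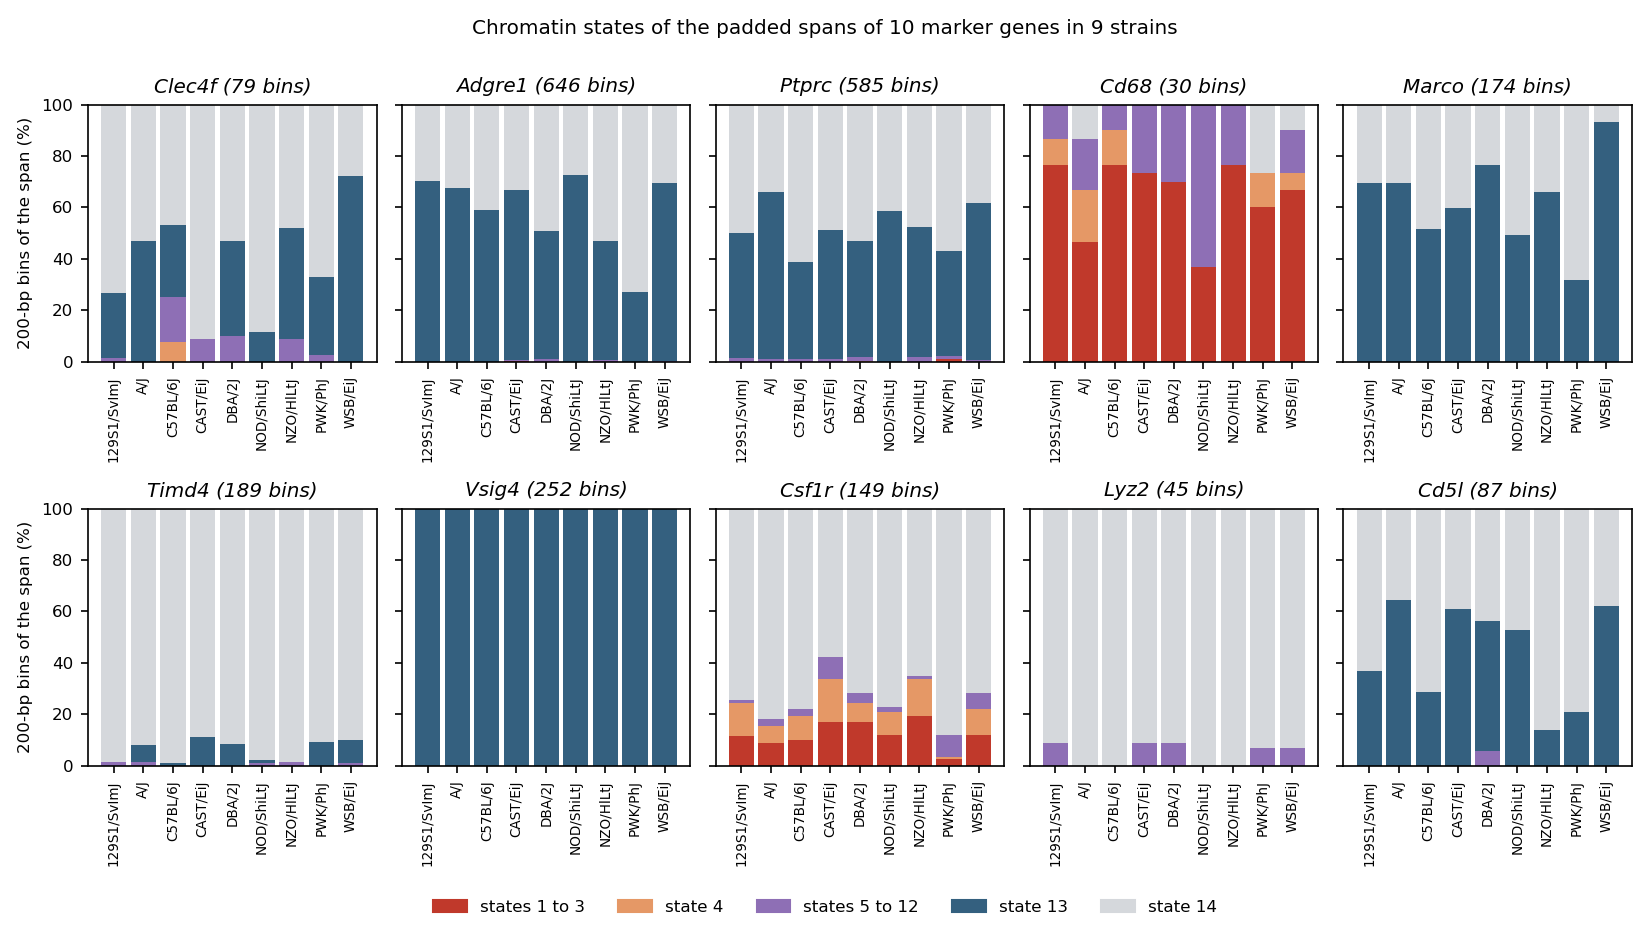
Percent of the 200-bp bins of each gene's span, with 2 kb added to each side, in groups of states, for each of the 9 strains. Cd68 is mostly in states 1 to 3 in all strains but NOD/ShiLtJ and A/J. Csf1r holds a smaller share of them, and Vsig4 is in state 13 throughout in all strains.

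Cd68 encodes macrosialin, a glycoprotein of lysosomes and endosomes that is abundant in macrophages. It is a short gene of 1958 bp (gene ID 12514, chr11:69664213-69666170, minus strand), with 30 bins in its span. States 1 to 3 filled 36.7% of the span in NOD/ShiLtJ, 46.7% in A/J, 60% in PWK/PhJ, 66.7% in WSB/EiJ, 70% in DBA/2J, 73.3% in CAST/EiJ and 76.7% in each of 129S1/SvImJ, C57BL/6J and NZO/HlLtJ. All 9 strains were far above their autosomal share, and NOD/ShiLtJ and A/J were the lowest. The mean was 64.8% ± 14.4 (SD, n = 9 strains), 59.6 percentage points above the autosomes (adjusted p = 0.00459, exact sign-flip permutation test, higher in 9 of 9 strains). The 50 kb to each side held 23.7% ± 2.82 of states 1 to 3, and the Cd68 span lay above its flanks in 9 of 9 strains.

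Cd68 sits between 2 other protein-coding genes, Mpdu1, whose nearest end is 1564 bp away beyond the 3′ end of Cd68, and Eif4a1, which encodes a translation initiation helicase and whose nearest end is 766 bp before the start of Cd68. Of the 30 bins, 19 lay within 1 kb of an end of these neighbours. The 2 kb on the Mpdu1 side were in states 1 to 3 in every bin of every strain, and the 2 kb on the Eif4a1 side held 13.3% ± 14.1. Inside the gene, where its own body lies, the share was 100% in 6 strains, 80% in PWK/PhJ, 40% in A/J and 10% in NOD/ShiLtJ, a mean of 81.1% ± 33.3 (SD, n = 9 strains). With the bins near the neighbours left out, Cd68 held 78.8% of states 1 to 3 and stayed higher (adjusted p = 0.0047, exact sign-flip permutation test). The start of Cd68, 766 bp from Eif4a1, is itself among the bins left out, so this value does not describe the start. The bins kept lie mostly in the gene body and still include part of the 2 kb on the Mpdu1 side. The part of the neighbours' own chromatin in the Cd68 values was not tested beyond leaving out these bins.

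State 3 lay within 1 kb of the start of Cd68 in 7 of 9 strains. In 129S1/SvImJ it ran over chr11:69664801-69666400 and so across the start itself, and in CAST/EiJ over chr11:69664401-69666600. NOD/ShiLtJ had no state 3 there, and states 8 and 9 alternated from chr11:69664401 to the end of the span. A/J also lacked state 3 at the start and had state 4 over chr11:69665401-69666600. NOD/ShiLtJ and A/J, which lacked state 3 at the start of Cd68, also had the lowest shares inside the gene. Cd68 is 1958 bp long, so the window of 1 kb around its start covers much of the gene. State 3 is also among the states counted in the shares. The measures therefore overlap, and their match is no separate finding. With 1 segmentation per strain, no test between the strains can be made.

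**Figure D2:**
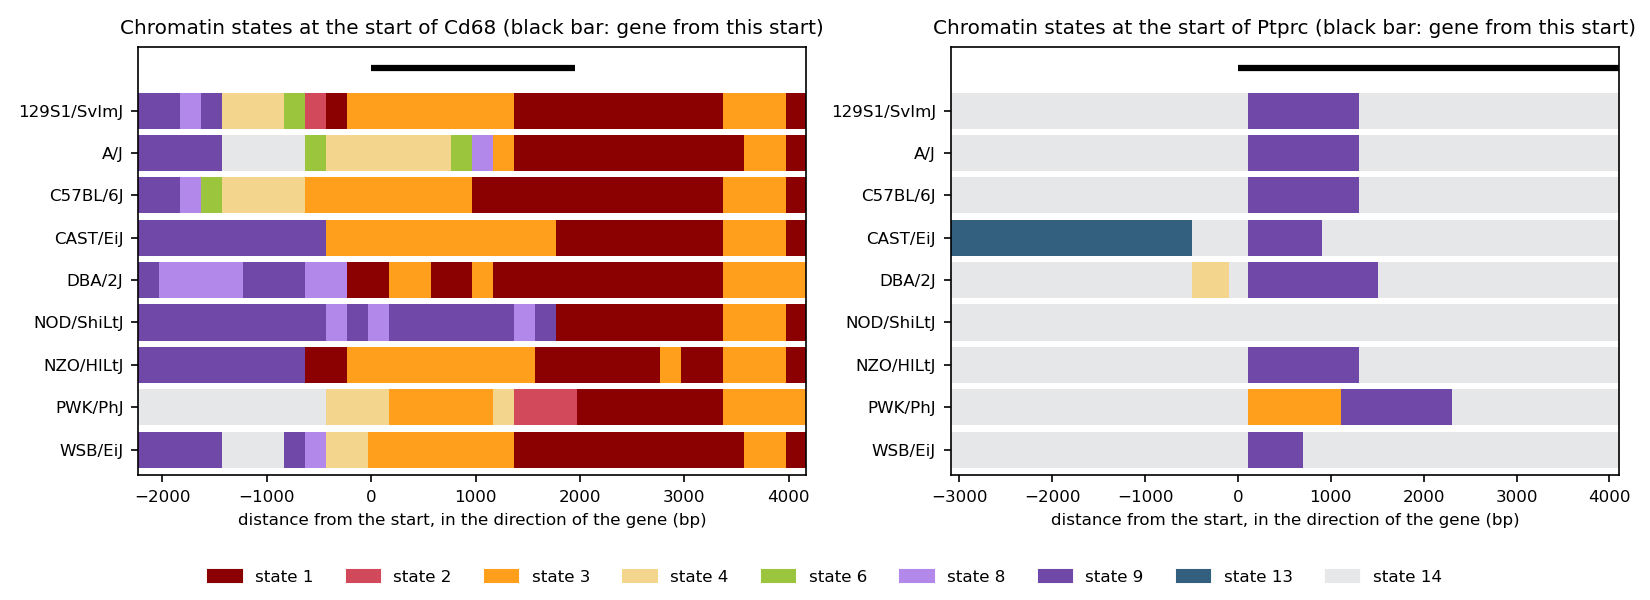
State of each 200-bp bin around the starts of Cd68 and Ptprc, 1 row per strain, against the distance from the start in the direction of the gene (black bar: gene from this start). At Cd68 the rows of NOD/ShiLtJ and A/J lack state 3 at the start, and at Ptprc state 9 lies just inside the gene in 8 strains, with state 3 beside it in PWK/PhJ alone.

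Csf1r encodes the receptor for the cytokines CSF1 and IL-34, on which tissue macrophages depend for their survival. It covers 25568 bp on chromosome 18 (gene ID 12978), with 149 bins in the span, and its positions are given as distances from its left end because its strand is in no table used here. States 1 to 3 filled 2.68% of the span in PWK/PhJ, 8.72% in A/J, 10.1% in C57BL/6J, 11.4% in 129S1/SvImJ, 12.1% in NOD/ShiLtJ and in WSB/EiJ, 16.8% in CAST/EiJ and in DBA/2J and 19.5% in NZO/HlLtJ. PWK/PhJ was the only strain below its autosomal share. The mean was 12.2% ± 5.03 (SD, n = 9 strains), 7.01 percentage points above the autosomes (adjusted p = 0.0089, exact sign-flip permutation test, higher in 8 of 9 strains). The 50 kb to each side held 3.04% ± 0.487, and Csf1r lay above its flanks in 9 of 9 strains.

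All of the states 1 to 3 at Csf1r lay inside the gene, and neither 2-kb pad held any, although Hmgxb3 begins or ends 138 bp beyond the right end. With the 11 bins near Hmgxb3 left out the share was 13.2%. Each strain had a block of states 1 to 12 near the left end of the gene, 3000 bp long in PWK/PhJ and 7800 bp in CAST/EiJ and DBA/2J, with a median of 6200 bp. The block began 229 to 2429 bp and ended 5428 to 8228 bp from the left end. Within it, 15 bins in a row, from 2429 to 5428 bp, were outside states 13 and 14 in all 9 strains, and 4 bins, from 2629 to 3428 bp, were in states 1 to 3 in all 9. The common part of the block was thus internal to the gene and short compared with the gene.

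In 8 strains most of the block was in states 2 and 4, and not in the start-rich state 3. State 3 occurred at Csf1r in DBA/2J alone, in 8 bins, beside 5 bins of state 1, 12 of state 2, 11 of state 4 and 3 of state 6. In PWK/PhJ the block held 10 bins of state 6, 4 of state 2 and 1 of state 4. State 2, unlike state 3, was rarer within 1 kb of gene starts (1.36%) than over the autosomes (2.30%). A second block lay 20829 to 25028 bp from the left end in CAST/EiJ, and between these positions in 129S1/SvImJ (2000 bp) and NZO/HlLtJ (3200 bp). Only unbroken stretches of at least 1000 bp are counted as blocks. Of the other 6 strains, A/J had state 14 throughout this stretch, while C57BL/6J, DBA/2J, NOD/ShiLtJ, PWK/PhJ and WSB/EiJ had shorter segments of state 6, with state 4 as well in C57BL/6J. The stretch near the right end was thus outside state 14 somewhere in 8 of 9 strains, and held state 2 in CAST/EiJ and NZO/HlLtJ. A long non-coding RNA gene, Gm52352 (chr18:61119061-61127307), lies inside Csf1r and has its right end in this stretch. The part of Gm52352 in these states was not tested. No strain had state 13 anywhere in the Csf1r span. Csf1r is known to carry an enhancer for macrophages in an intron, whose position is in no table used here, and whether the first block overlaps it was not tested.

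**Figure D3:**
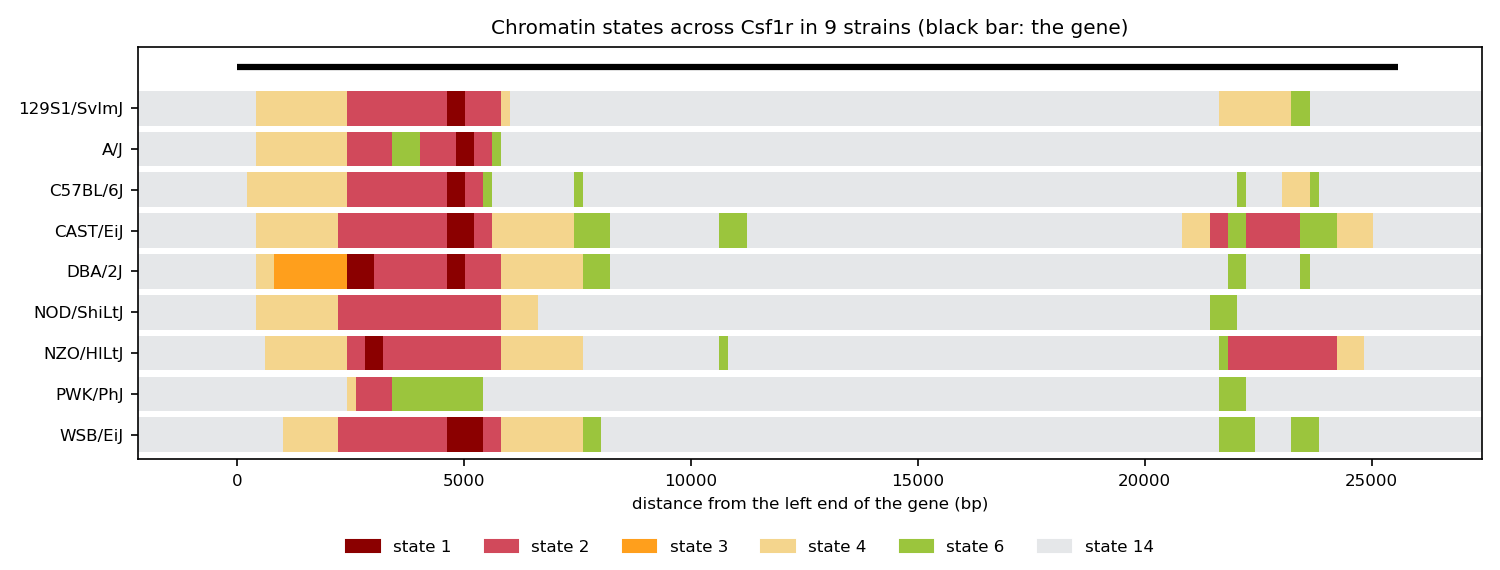
State of each 200-bp bin over Csf1r and 2 kb to each side, 1 row per strain, against the distance from the gene's left end. All 9 strains share a block between 2429 and 5428 bp, shortest in PWK/PhJ, and 3 strains have a second block of at least 1000 bp near the right end, where 5 others have shorter segments.

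Ptprc encodes CD45, the receptor tyrosine phosphatase on nearly all white blood cells, and so marks leukocytes in general. It covers chr1:138062859-138175756 (gene ID 19264, minus strand), with 585 bins in the span and 2 starts in the promoter table. States 1 to 3 were absent from Ptprc in 8 strains, and in PWK/PhJ they filled 0.855% of the span, 5 bins of state 3 over chr1:138174201-138175200, just inside the first start. State 9 lay within 1 kb of the start in 8 of 9 strains, all but NOD/ShiLtJ. State 9 in at least 8 strains was found at 10.7% of all protein-coding genes, and Ptprc was the only one of the 10 genes with it. State 9 covered 3.46% of bins near starts and 0.814% of autosomal bins.

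The state 9 segment of Ptprc was in nearly the same place from strain to strain. It covered chr1:138174001-138175200 in 129S1/SvImJ, A/J, C57BL/6J and NZO/HlLtJ. The segment was chr1:138173801-138175200 in DBA/2J, chr1:138174401-138175200 in CAST/EiJ and chr1:138174601-138175200 in WSB/EiJ. In PWK/PhJ state 9 lay farther into the gene, at chr1:138173001-138174200, next to the state 3 segment. Thus 7 strains had state 9 ending at the same bin. Apart from short segments of states 4, 6 and 10 in some strains, the rest of the span was in states 13 and 14, with state 13 in 50.8% ± 9.21 of the bins (SD, n = 9 strains).

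Beside the state 3 segment of Ptprc, PWK/PhJ also stood apart at the endothelial genes. It had state 3 at the start of 14 of 20 endothelial genes, against 2 (A/J) to 8 in the other strains. Over all protein-coding genes the count was 10226 of 21631 in PWK/PhJ, and 9850 (NOD/ShiLtJ) to 10424 (DBA/2J) in the other strains. At 20 other macrophage and myeloid genes PWK/PhJ had state 3 at 5 starts, within the range of 4 to 6 of all strains. At 10 stellate cell genes every strain, PWK/PhJ included, had state 3 at 1 start. The part of endothelial or immune cells in the state 3 segment of Ptprc was not tested.

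Adgre1 encodes F4/80, an adhesion receptor widely used to stain mouse macrophages. It is the longest of the 10 genes (gene ID 13733, chr17:57358581-57483529, 646 bins), and its start is in no table used here, so both ends were examined. Neither end had state 3 in any strain. CAST/EiJ alone had states 1 to 3, as 2 bins of state 3 at chr17:57434001-57434400 inside the gene, 0.31% of the span. State 11 lay close to the left end in CAST/EiJ, DBA/2J, NZO/HlLtJ and WSB/EiJ, from 1 bin in WSB/EiJ to chr17:57358801-57360000 in DBA/2J. All else but 1 bin of state 10 in CAST/EiJ was in states 13 and 14, with state 13 in 27.2% of the bins in PWK/PhJ, a median of 66.1% and 72.6% in NOD/ShiLtJ.

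Clec4f, Timd4, Vsig4, Marco and Cd5l are the genes most closely tied to Kupffer cells, and none of them had states 1 to 3 in any strain. Clec4f encodes a C-type lectin that in the mouse is found on Kupffer cells (gene ID 51811, chr6:83644542-83656116, 79 bins). States 1 to 12 held 0% to 10.1% of its bins in 8 strains and 25.3% in C57BL/6J. In C57BL/6J these were state 7 at chr6:83650001-83651800 and chr6:83653201-83654200 and state 4 at chr6:83654201-83655400, which ends less than 1 kb from the start. DBA/2J had state 9 at chr6:83654601-83655800, NZO/HlLtJ state 7 at chr6:83654401-83655200, and CAST/EiJ state 6 at the opposite end, at chr6:83645801-83647200. Within 1 kb of its start Clec4f thus held state 4, 9 or 7 in these 3 strains and none of states 1 to 12 in the other 6. State 13 held 0% of Clec4f in CAST/EiJ, a median of 30.4% and 72.2% in WSB/EiJ.

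Timd4 encodes TIM4, a receptor for phosphatidylserine on dying cells that marks long-lived resident macrophages (gene ID 276891, chr11:46810786-46844333, plus strand, 189 bins). State 14 filled 94.1% ± 4.18 of it (SD, n = 9 strains). Apart from states 13 and 14 it held only a short segment of state 6 far inside the gene, between chr11:46830001-46830800, in 129S1/SvImJ, A/J, NOD/ShiLtJ, NZO/HlLtJ and WSB/EiJ. The other 4 strains lacked it, and nothing but states 13 and 14 lay near the start.

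Vsig4, the complement receptor CRIg that captures opsonised bacteria, was in state 13 in all 252 bins of all 9 strains (gene ID 278180, chrX:96247201-96293438, minus strand). State 13 is the common state of X, where it held 85.8% ± 4.49 of all bins (SD, n = 9 strains), and 12.2% of 966 X-linked protein-coding genes were in state 13 throughout in all strains, so state 13 at Vsig4 is that of most of its chromosome. Marco, a scavenger receptor for bacteria and particles, held only states 13 and 14 (gene ID 17167, chr1:120474538-120505024, minus strand, 174 bins). Spans of states 13 and 14 alone in every strain were found at 2 of 10 genes, Marco and Vsig4, and at 14.3% of all genes. State 13 filled 31.6% of Marco in PWK/PhJ, a median of 66.1% and 93.1% in WSB/EiJ. Marco thus ranged widely between strains in how its bins were split between the 2 states, while Vsig4 did not vary at all.

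Cd5l encodes AIM, a secreted protein made by tissue macrophages that acts on lipid metabolism and macrophage survival (gene ID 11801, chr3:87357881-87371074, plus strand, 87 bins). State 13 held 13.8% of it in NZO/HlLtJ, a median of 50.6% and 64.4% in A/J. DBA/2J alone had other states, state 9 at chr3:87358201-87358600 and state 11 at chr3:87358601-87359000 and chr3:87360201-87360400, together 5.75% of the span and all within the first part of the gene. Lyz2 encodes lysozyme M, an enzyme that cuts bacterial cell walls and is abundant in macrophages and neutrophils (gene ID 17105, chr10:117277541-117282272, minus strand, 45 bins). State 14 filled 95.6% ± 4.3 of Lyz2 (SD, n = 9 strains), and state 13 did not occur. In 129S1/SvImJ, CAST/EiJ, DBA/2J and WSB/EiJ a segment of state 9 lay beyond its 3′ end, within chr10:117275401-117276200, and in PWK/PhJ states 6 and 8 covered chr10:117277601-117278200 at the 3′ end of the gene. Lyz2 has a close copy beside it, Lyz1, and how reads that fit both were placed is not given in the sources used here. None of the 9 strains had any state but 14 at the start of Lyz2.

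Among the genes in states 13 and 14, the split between these states set most of the variation. State 13 held 11.1% ± 1.36 of the autosomes (SD, n = 9 strains), and more than that on average in Clec4f (32.6%), Adgre1 (58.7%), Ptprc (50.8%), Marco (63.0%) and Cd5l (43.4%), but not in Timd4 (5.11%), Lyz2 or Csf1r. The bins within 1 kb of gene starts are a measure unlike these span shares. There state 13 filled 12.3% for all protein-coding genes, 60.6% for the 20 neuron genes, 28.9% for the 10 skeletal muscle genes and 0% for the hepatocyte genes. At its start, Ptprc held state 13 in CAST/EiJ alone (25%) and Clec4f in WSB/EiJ alone (27.3%). Cd5l reached at most 27.3% (A/J) and Marco 81.8% (DBA/2J and WSB/EiJ), and the 2 ends of Adgre1 held 54.5% (PWK/PhJ) to 100%. Over the 5 genes Clec4f, Adgre1, Ptprc, Marco and Cd5l, PWK/PhJ was the lowest strain at 2 (Adgre1 and Marco), and WSB/EiJ and A/J were the highest at 2 each. Over the autosomes PWK/PhJ held 11.4% of state 13, the 6th lowest of the 9 strains. WSB/EiJ (13.1%) and A/J (12.8%) held the most state 13 over the autosomes, and C57BL/6J, the lowest at Ptprc, held the least (9.4%). WSB/EiJ and A/J, the highest at 2 genes each, were thus at the same end as over the autosomes, and PWK/PhJ was not. C57BL/6J was the lowest at only 1 of the 5 genes, the same count as for CAST/EiJ and NZO/HlLtJ.

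**Figure D4:**
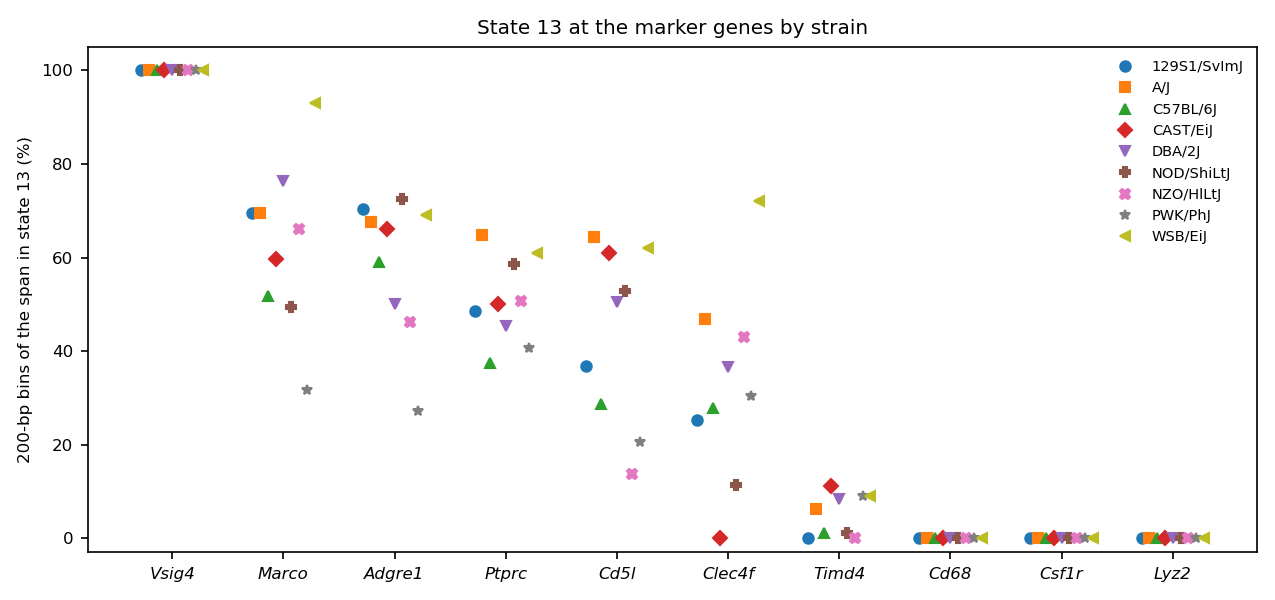
Percent of the 200-bp bins of each gene's span in state 13, 1 marker per strain. Vsig4 is at 100% in all strains, Cd68, Csf1r and Lyz2 at 0%, Timd4 stays low, and Clec4f, Adgre1, Marco and Cd5l spread widely.

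The difference between strains ranged widely over the 10 genes. Averaged over the 36 pairs of strains, the share of bins in unlike states was 44.0% at Cd68, 40.5% at Clec4f, 36.2% at Cd5l, 34.2% at Marco, 30.5% at Adgre1, 25.7% at Ptprc, 19.7% at Csf1r, 9.32% at Timd4, 6.42% at Lyz2 and 0% at Vsig4. Over all protein-coding genes the median was 19.7%, with quartiles of 10.9% and 28.9%. With states 13 and 14 counted as 1 state, the values fell to 12.2% at Clec4f, 1.28% at Cd5l, 1.23% at Ptprc, 0.97% at Timd4, 0.473% at Adgre1 and 0% at Marco, and stayed as they were at Cd68, Csf1r and Lyz2. Cd68, Csf1r and Lyz2 held no state 13, so their differences between strains were among the other states, while at Adgre1, Ptprc, Marco and Cd5l they lay almost wholly in the choice between states 13 and 14.

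Over the 10 genes together, the bins in states 1 to 3 numbered 27 in A/J and PWK/PhJ and 52 in NZO/HlLtJ, with a mean of 38.4 ± 9.40 (SD, n = 9 strains). Without Cd68 the lowest was 9 in PWK/PhJ and the highest 29 in NZO/HlLtJ, all of them in Csf1r but for 2 bins of Adgre1 in CAST/EiJ and 5 of Ptprc in PWK/PhJ. Bins that differed from a state shared by the other 8 strains made up 4.43% of the 10 spans in PWK/PhJ, 4.2% in CAST/EiJ and 0% in 129S1/SvImJ. Over chromosomes 1 to 19 and X the same measure was 4.38% in PWK/PhJ, 2.26% in CAST/EiJ and 0.811% in 129S1/SvImJ. PWK/PhJ, a strain derived from wild mice, thus had a similar share of such bins at these genes and over the genome. The share at these genes was above that over the genome in DBA/2J (2.5% against 0.734%), C57BL/6J (1.52% against 0.619%) and CAST/EiJ, among others, and these differences have no test with 1 map per strain.

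The same measures were taken over gene lists for other cell types, written from general knowledge. Of 20 other macrophage and myeloid genes, 7 were higher in states 1 to 3, 12 lower and 1 not called, with a median of 0.0811%. State 3 lay at the start in all 9 strains at 3 of them, among them the transcription factor gene Irf8 (15.5%) and the receptor gene Mertk (19.6%), and at the start in no strain at 13. Fcer1g, which encodes a chain of Fc receptors, had the highest share, 84.4% ± 5.21 (SD, n = 9 strains), and its span reaches a neighbouring protein-coding gene. The wider myeloid list therefore resembled the 10 genes in holding a few genes rich in states 1 to 3 beside many without them.

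The genes of lymphocytes and neutrophils also held few of these states. Of 20 lymphocyte genes, 0 had state 3 at the start in all 9 strains and 3 were higher, with Cd4 (26.6%, with the neighbour Gpr162 in its span) and Cd79a (23.5%, with Arhgef1) at the top and a median of 1.05%. Of 10 neutrophil genes, 0 had state 3 at the start in all 9 strains and 1 was higher, Elane at 69.2%, followed by Ly6g at 2.5%, and the median was 0%. All 10 stellate cell genes were lower, and Reln (1.25%) had state 3 at the start in all 9 strains. The highest 2 stellate shares were those of Reln and Acta2 (0.802%), both lower than the autosomes.

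In median share alone, endothelial and bile duct genes lay near all protein-coding genes, whose median was 5.14%. Of all protein-coding genes, 46.4% were higher and 41.0% had state 3 at the start in all 9 strains. Fewer endothelial and bile duct genes had state 3 there. Of 20 endothelial genes 7 were higher and 9 lower, with a median of 5.15%, and 1, Oit3 (24.0%), had state 3 at the start in all 9 strains. Lyve1 (53.3%) and Egfl7 (51.5%) had the highest endothelial shares. Of 8 bile duct genes 3 were higher, with a median of 4.74%, and 1 had state 3 at the start in all 9 strains. Sox9, a transcription factor of bile duct cells, held 19.7%.

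The 20 hepatocyte genes stood at the other end. States 1 to 3 were grouped from these same genes, so their values describe the scale and are no check of the label. All 20 were higher in states 1 to 3 and 18 had state 3 at the start in all 9 strains, among them Ahsg (95.4%), Alb (73.7%), Apoa1 (100%) and Apoa2 (100%). The 10 ubiquitous genes were all higher, with a median of 56.9%, and 8 had state 3 at the start in all 9 strains, such as B2m (95.1%), Eef1a1 (86.2%), Gapdh (79.5%) and Ppia (41.7%). Genes of other organs are given for comparison. Of 20 neuron genes 1 was higher, Nrgn (10.8%), next to Syt1 (4.04%), and none had state 3 at the start in all strains. Of 10 skeletal muscle genes 1 was higher, Mylpf (41.9%, with Tbc1d10b and Septin1 in its span), and Actn3 (3.95%), which has Ctsf and Zdhhc24 in its span, had state 3 at the start in all 9 strains.

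**Figure D5:**
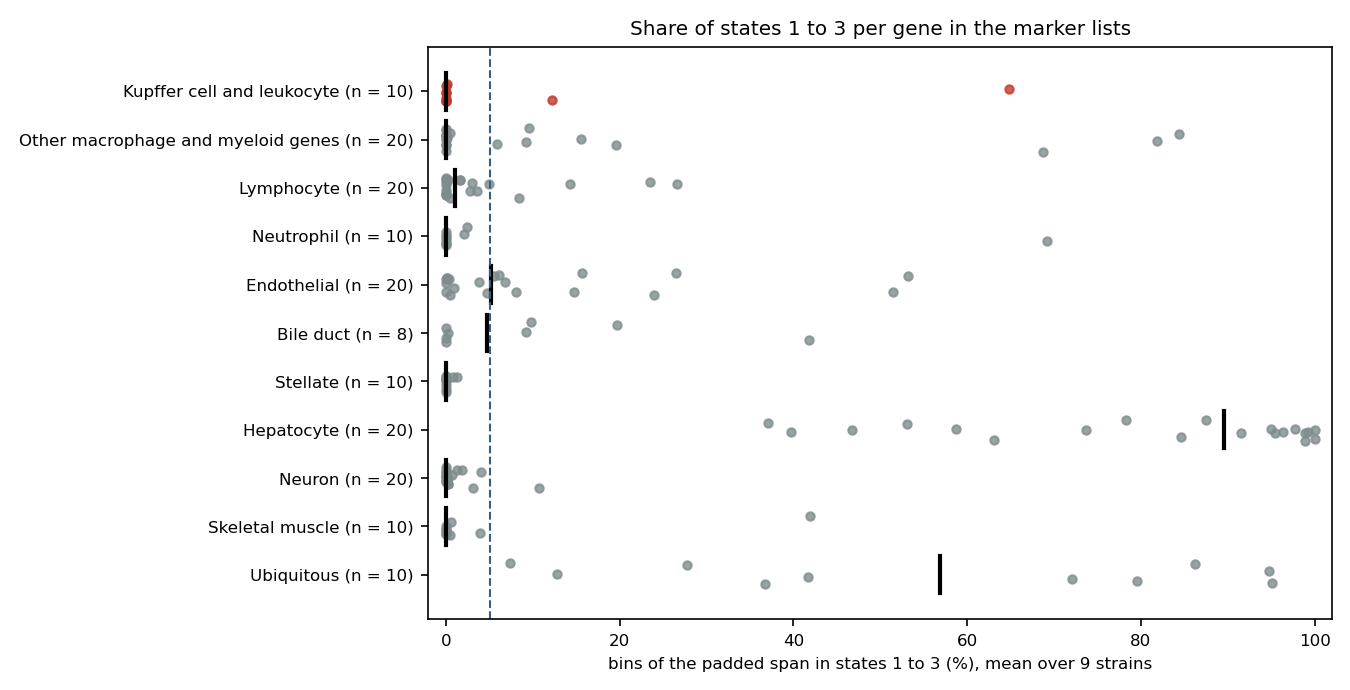
Mean percent of bins in states 1 to 3 of each gene, 1 point per gene, for the 10 genes described and the lists of other cell types; the black tick is the list's median and the dashed line the median of all protein-coding genes. The 10 genes lie at or near 0% except Csf1r and Cd68, and the hepatocyte genes lie highest.

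The 10 genes were last set against the hepatocyte genes. In means over the strains, the lowest hepatocyte gene held 37.1% of states 1 to 3 and Cd68 alone of the 10 genes exceeded that. Single strains differed: Cd68 held 36.7% in NOD/ShiLtJ, and the hepatocyte gene Cyp2e1 held 0% in its lowest strain. Clec4f, Timd4, Vsig4, Marco and Cd5l had a median of 0%, as the neutrophil, stellate and skeletal muscle lists had. Whether immune cells were present in the preparations was not measured here, and neither the presence of states 1 to 3 at Cd68 and Csf1r nor their absence at the other 8 genes was tested against a count of such cells.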

How the data were processed

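Liver cells labelled as hepatocytes from 9 inbred strains were profiled by ChIP-seq in 117 libraries. The authors deposited 1 chromatin state segmentation per strain, in which, per the file headers, each interval belongs to 1 strain; column 4 holds a state number, a category and not a count, signal or score, so no other unit applies. Per the submitters' processing notes, the build is mm10 and FastQC 0.11.5 and MACS 1.4.2 were named; the segmentation tool and depth are not given in the sources used here, so counting error is unknown.

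Segmentations were written as states of 200-bp bins. Gene spans and starts were taken from RefSeq tables of GRCm38.p6, where 17274 of 21631 protein-coding genes (79.9%) had a start; both gene ends were used for the rest. The share of states 1 to 3 in each span, padded by 2 kb, was compared with the strain's autosomes (X for X-linked genes) by exact permutation (two-sided sign flips over the 9 strains) with Benjamini-Hochberg adjustment over all 21631 genes (threshold 0.05). In simulated data of 2000 genes, all 200 planted changes were called, and 0% of the others. The planted genes had a mean share of 43.1%, and recovery of smaller changes was not tested separately. The states of each simulated strain were drawn separately, whereas real strains share many states. The 0% therefore does not give the rate of false calls in these maps. Related strains are not independent samples.

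The 10 genes and the 10 lists of other cell types were chosen with earlier results of these data known. Named from each list were the genes with state 3 at the start in all 9 strains (the first 4 by alphabet where more than 6) and the 2 with the highest share. Some genes that this rule names are not reported here. Alternatives varied the padding, the states grouped, the start window, neighbouring genes and each strain left out. Scripts ran under Python 3.11.15 with matplotlib 3.10.9, scipy 1.17.1, pandas 2.3.3 and numpy 2.4.6.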

Additional observations from a re-analysis of the deposited data

Results flagged for a closer look

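Strain values were examined in 30 sets (3 measures at each of the 10 genes), of which 18 varied between strains, and in 5 a strain's gap to its nearest neighbour, as a share of the range, exceeded Dixon's 95% critical value. At Adgre1, Ptprc and Cd5l the other 8 strains were at 0%, so any bin in a single strain meets this limit and the share that chance gives does not apply. Clec4f had 25.3% of its bins in states 1 to 12 in C57BL/6J, and the next highest strain had 10.1%. Adgre1 had 0.31% of its bins in states 1 to 3 in CAST/EiJ, and 0% in the other strains. Ptprc had 0.855% of its bins in states 1 to 3 in PWK/PhJ, and 0% in the other strains. Cd68 had 73.3% of its bins in states 1 to 12 in PWK/PhJ, the lowest value, and the next lowest strain had 86.7%. This gap was 0.5 of the range, just above the limit. Cd5l had 5.75% of its bins in states 1 to 12 in DBA/2J, and 0% in the other strains. Each rests on 1 segmentation, so none has a replicate.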

How the results depend on the processing

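No gene of the 10 had state 3 at the start in all strains under any window tried, with state 1 counted along with state 3, or with both ends used for every gene (the last chosen after seeing the data). The calls of 2 higher and 8 lower genes kept their counts with each strain left out, with other paddings, with states 1 to 4 and with the bins near neighbouring genes left out. The exception was Clec4f, which with all states except 13 and 14 held 6.33% and was no longer called lower (adjusted p = 0.0708, exact sign-flip permutation test), so that 7 genes were lower. The median over the 10 genes moved from 0% to 0.0172% with states 1 to 4 and to 0.99% with all states except 13 and 14. With each strain left out in turn the counts stayed at 0, 2 and 8 and the median at 0%. With states 1 to 3 kept as the group, the share ranged over the alternatives from 51.3% to 81.1% at Cd68 and from 10.2% to 14.1% at Csf1r. With all states except 13 and 14, a wider group, the shares were 94.4% and 26.0%. Without the padding, the share of bins in unlike states over strain pairs rose to 54.7% at Cd68 and 46.4% at Cd5l, now above Clec4f at 43.7%, and fell to 2.67% at Lyz2. No paired analysis was possible because each strain has 1 combined segmentation that carries no mouse numbers. Depth was not given, so its limits are unknown.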
